A study of Mus musculus with 6 samples.

Results

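The 4 wild-type arrays of a 6-array study of mouse bone marrow B cells were taken here as one set, to describe what RNA these cells hold, which genes were read alike on every array and which were not. They were chosen by their titles, which give 2 arrays of Igκ+ and 2 of Igλ+ cells, and no contrast between the light chains is made. All mice were C57BL/6, aged 8 to 12 weeks, with the sex given as a mix and no treatment. The genotype label of the 4 arrays is mb-1/TAK1+/+, and the remaining 2 arrays are of TAK1-deficient Igκ+ cells labelled mb-1/TAK1f/f (TAK1 is the kinase encoded by Map3k7; mb-1 is the older name of Cd79a, and the labels name no Cre). In all groups, antibodies to CD3, Ter119, CD11b, DX5 and Gr1 were first used for depletion, and the rest were sorted by flow cytometry on surface Igκ or Igλ. The labels do not say whether 2 arrays of a group came from separate animals or from pooled marrow, so the spread between arrays may be in part technical. In bulk RNA, fewer cells of a type and less RNA per cell cannot be told apart.

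Bone marrow is where B cells are made. Progenitors rearrange the heavy chain and then a light chain gene, first testing the heavy chain with a surrogate light chain, and stop dividing before they become surface immunoglobulin positive. A sort on Igκ or Igλ therefore takes newly made immature B cells together with mature B cells that have returned to the marrow, and can take plasma cells that still carry surface immunoglobulin. The same marrow holds granulocytes, monocytes, basophils, megakaryocytes, red cell precursors and NK cells, and not all of them carry an antigen used for depletion.

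The unit is the probe set signal, a linear intensity scaled to the same trimmed mean on each array. A gene is represented by its brightest probe set (by mean over the 4 arrays), and its spread is the standard deviation (SD) of log2(signal + 16) over them, with n = 4 throughout. A gene counts as above the control level when that probe set exceeds, on each array, the 95th percentile of the 27 Affymetrix control probe sets whose RNA was not added. That level was 13.4, 10.3, 13.1 and 17.4. A gene is at the control level when none of its probe sets exceeds it on any array. Wherever 4 values are listed, they are in the order Igκ+ replicate 1, Igκ+ replicate 2, Igλ+ replicate 1 and Igλ+ replicate 2.

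The arrays were of similar quality. Spearman's correlation over all probe sets was 0.933 to 0.958 among them, against 0.404 to 0.476 with the TAK1-deficient arrays, whose control level was 77.7 and 75.7. Signal from the 3′ end of Actb over that from its 5′ end, a sign of RNA integrity, was 1.25 to 1.58 on the wild-type arrays. On the TAK1-deficient arrays it was 6.28 and 4.18. Their median signal over all probe sets was 324 and 323, against 44.9 to 59.1 on the wild-type arrays. What part genotype has in the low correlation was not tested. Igλ+ replicate 1 stood apart. Of 8557 genes with a mean signal of at least 200, 522 differed by at least 2-fold between it and Igλ+ replicate 2 and 496 between it and Igκ+ replicate 2, whereas the other pairs of arrays had 189 to 253 such genes. For several of the lists that were highest on this array, spreads are given with and without it.

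Of 18193 genes with a symbol of their own, 11643 (64%) were above the control level on all 4 arrays, 2750 (15.1%) were at it on all 4, and 3800 (20.9%) were mixed. Genes of the B lineage were nearly all read. Of 114 measured genes on 8 lists of B cell biology, 108 (94.7%) were above the control level on every array and 1 was at it. Of 196 measured markers on 15 lists of other cells and tissues, 71 (36.2%) were above it on every array and 23 (11.7%) were at it. A gene with many probe sets has more chances to exceed the controls. The share at the control level was 24.1% among genes with 1 probe set and 2.76% among those with 3 or more.

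**Figure D1:**
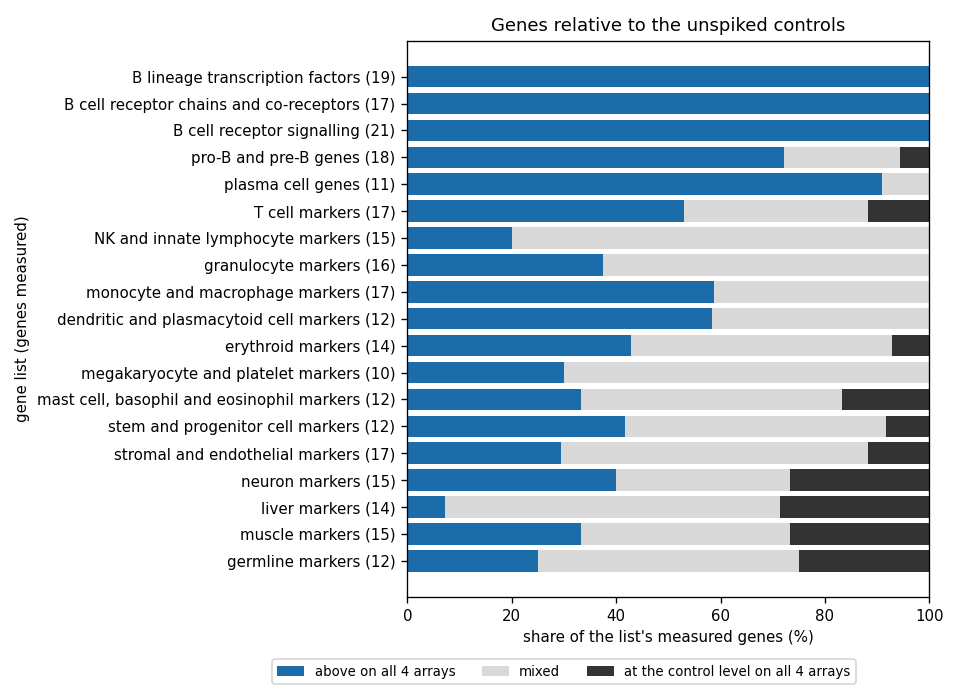
For 19 gene lists, the bars show the share of measured genes (percent, number measured in brackets) that were above the level of the unspiked controls on all 4 wild-type arrays (blue), at it on all 4 (black) or mixed (grey). The first 3 lists, of the B lineage, are above it with all 19, 17 and 21 genes, and the black share is largest for tissues outside the marrow.

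The brightest 25 genes were those of protein synthesis, the actin cytoskeleton and the B cell surface. Rank here is rank of signal only, because probe sets respond differently and no gene's level can be set against another's. Ribosomal proteins made up 15 of the 25. Rps20, of the small ribosomal subunit, came first with signals of 12103, 12775, 12844 and 12738, lowest on Igκ+ replicate 1. Rpl19 followed with 10584, 14228, 12492 and 12376, and here Igκ+ replicate 2 was the high array. The translation-linked genes Naca and Tpt1 were also among the 25.

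The other genes included 4 of the B cell surface and antigen presentation. Cd74, the invariant chain that escorts MHC class II molecules, had signals of 10782, 13236, 11358 and 12142. Cd24a, the heat-stable antigen that is high on immature B cells, had 11675, 11802, 10998 and 12724. Igκ+ replicate 2 was the highest for Cd74 and Igλ+ replicate 2 for Cd24a, and the arrays overlapped between these genes. H2-Aa, an MHC class II chain, had 10630.4, 11682, 10667 and 10382, and Ly6e, a GPI-anchored antigen of immature lymphocytes, had 10610.3, 13023, 11818 and 12394. Actb and the thymosins Tmsb4x and Tmsb10, which bind actin monomers, and the ferritin heavy chain gene Fth1 complete the set.

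These 25 genes lay between 9499 and 14228 on every array, with SDs of 0.04 to 0.17. The brightest probe set of each array, a spiked control, reached 15310 to 16295. In all 24 pairs of neighbours in the ranking the ranges over the arrays overlapped, so the order within the 25 is not settled, and 16 of them were in the top 25 on each array taken alone. The last gene inside, Rps3, had a mean log2 value of 13.38, and the first outside, Rpsa, also 13.38. Igκ+ replicate 1 was the lowest array for 22 of the 25 and Igκ+ replicate 2 the highest for 19. That order moves with the scaling. Over the 43 ribosomal proteins measured, the median deviation from each gene's own mean was -0.11, 0.12, 0.03 and -0.01, and after quantile normalization it was -0.03, 0.02, 0.04 and -0.01. Of the brightest 25, 18 had further probe sets, and for 8 of them at least 1 of these was more than 10 times dimmer, so that a bright gene can also carry dim probe sets. Rps16 is an extreme case: its only probe set had 0.957, 0.203, 0.766 and 1.37, below the unspiked controls, although the other 42 measured ribosomal proteins were above them.

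**Figure D2:**
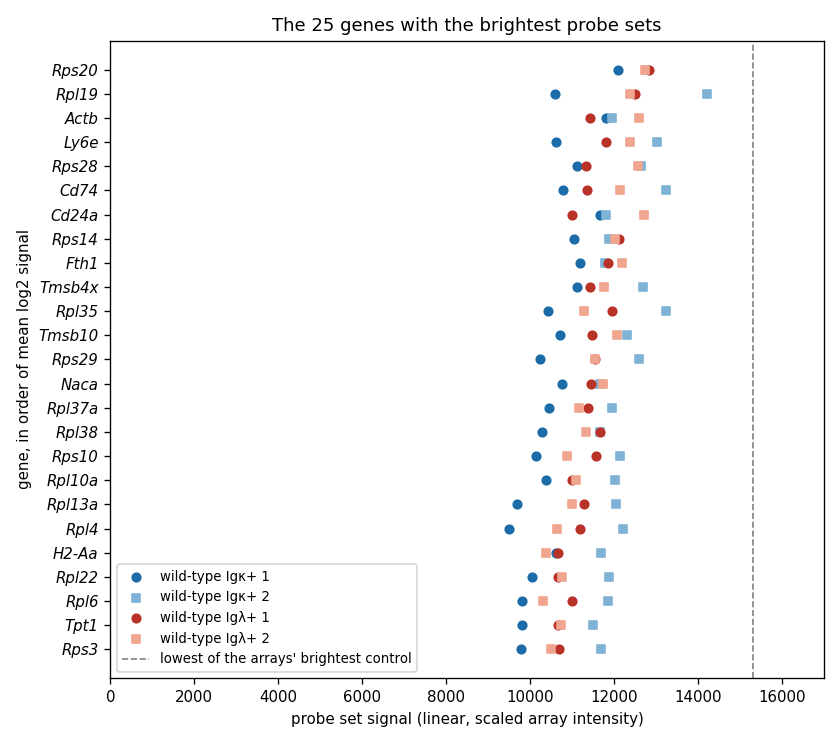
Signals of the brightest 25 genes (linear intensity, horizontal axis, from 0) on the 4 wild-type arrays, in order of their mean; the dashed line is the lowest of the 4 arrays' maxima. The ranges of neighbouring genes overlap, and Igκ+ replicate 1 (dark blue circles) is the lowest array for 22 genes.

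Genes of the B cell receptor were read on all 4 arrays. Of the chains and co-receptors of the B cell receptor, all 17 measured genes were above the control level, with a median SD of 0.12 against 0.21 for all genes with a mean signal of at least 200. The 2 are not matched for signal. Over all genes the median SD was 0.17 at means of 2000 to 5000 and 0.11 above 5000. Fcrla, a B cell Fc receptor-like protein, had signals of 6619.7, 6169.8, 6863 and 6637 (SD 0.06). Ighm, the µ heavy chain constant region, had 7199, 8585, 7486 and 7649.8, lowest on Igκ+ replicate 1, and Cd22, an inhibitory co-receptor, had 7034, 6203, 7539 and 6588, lowest on Igκ+ replicate 2. No array stood apart for these 3. Cr2 (complement receptor 2) and Fcer2a (CD23), both markers of mature follicular cells, varied more, at 2326, 2505, 3549 and 1739 and 3554, 4656, 4551 and 2766, with Igλ+ replicate 2 lowest for both.

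All 19 measured transcription factors of the lineage were above the control level as well. Ebf1, which commits progenitors to the B lineage, had signals of 5983, 6172, 5926 and 6411 (SD 0.05). Pou2af1, the co-activator of octamer factors, had 6864, 6707, 6031 and 6964. Pax5, the factor that keeps B cell identity, was dim at 120.3, 193, 101 and 186, though above the controls on every array. Lef1, a factor of early B cells, had 1639, 1706, 462 and 1458, and Zeb2 had 1747, 907, 738 and 1833. Igλ+ replicate 1 was the lowest array for both and for 15 of the 19 factors, and the list's median deviation was lowest there under all 4 scalings tried (-0.15 as deposited). Without that array the median SD of the list was 0.12 in place of 0.16.

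Receptor signalling, antigen presentation and homing were likewise present throughout. All 21 signalling genes, 10 MHC class II genes and 12 chemokine and adhesion receptors measured were above the control level. Bank1, a scaffold of the B cell receptor, had signals of 6364, 6109, 6287 and 5949, and Inpp5d, the phosphatase SHIP1, had 3460.2, 3899, 3610.4 and 3727, with no array apart. Ciita, the co-activator that switches on MHC class II transcription, had 1579, 2129, 2466 and 986, and the follicular homing receptor gene Cxcr5 had 2563, 3492, 3811 and 2103. Both were lowest on Igλ+ replicate 2, as were 8 of the 12 homing genes (median deviation there -0.23).

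As deposited, lists of housekeeping machinery had lower median SDs than all genes with a mean signal of at least 200 (0.21), from which they differ in signal. The median SD was 0.09 for 18 genes of the actin cytoskeleton, 0.12 for ribosomal proteins, 0.13 for 23 translation factors, 0.14 for 33 respiratory chain genes, and 0.16 for 31 proteasome subunits. Bright genes were steadier in general, and the median SD fell from 0.30 for genes with mean signals of 200 to 500 to 0.11 above 5000. Cfl1 (cofilin, which severs actin filaments) had signals of 9996, 9965, 10035 and 10049.8, an SD of 0.01. Eif3e, a subunit of an initiation factor, had 7165, 7021, 6944 and 6984 (SD 0.02). Among 15 genes in common use as references, Polr2a (3257, 3082, 3173 and 3092) and Eef1a1 (8677, 9218, 9097 and 9005) both had an SD of 0.04, and Hprt (2357, 3474, 2878 and 2226) had the largest, 0.29. These SDs depend on the scaling: with median centring they were 0.22 for the cytoskeleton, 0.26 for ribosomal proteins and 0.26 for the chains of the B cell receptor. Proteasome subunits then had 0.273, against 0.268 for all genes of mean at least 200.

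The steadiest 25 genes, taken among 6382 with mean signals of 500 to 5000, had SDs of 0.005 to 0.029. Zmym1, a zinc finger gene, had signals of 936, 931, 931 and 937. Taok2, a kinase, had 602, 603, 598 and 599, and Rnmt, which caps messenger RNA, had 1321, 1349, 1347 and 1335. Med7, a Mediator subunit, had 2695, 2736, 2668 and 2727, and Ss18, of the BAF chromatin complex, had 3762, 3843, 3771 and 3844. Cse1l, a nuclear export receptor of importins, had 3201, 3154, 3185 and 3086. No array stood apart for these 6 genes. The last gene inside was Rlim (SD 0.029) and the first outside was Srpr (0.030). The names are not stable. Of the 25, 10 were also among the 25 after quantile normalization, and 0 with median centring or with scaling on the spiked controls. The set is therefore a description of these 4 arrays as scaled, and other probe sets of the same genes were not as steady: 19 further probe sets of 11 of them, with mean signals of at least 200, had a median SD of 0.20, against 0.26 for further probe sets of all genes in the window.

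**Figure D3:**
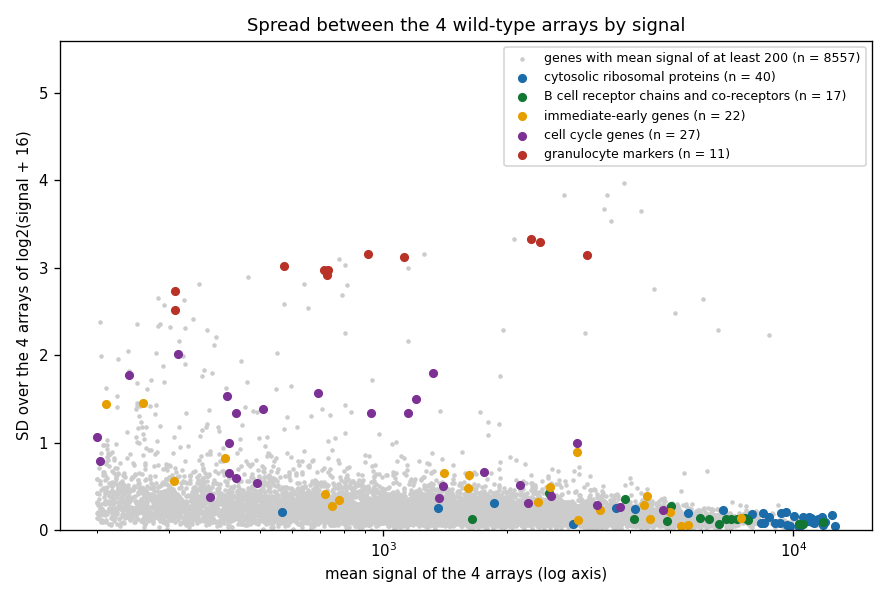
Each point is a gene: mean signal over the 4 wild-type arrays (log axis, from 200) against the SD of log2(signal + 16) over them. Ribosomal (blue) and B cell receptor (green) genes lie at the bright, low edge, and cell cycle genes (purple) reach 2.01. The 11 of 16 measured granulocyte markers (red) with means of at least 200 have SDs of about 2.5 to 3.3. The dimmer markers of that list are not drawn and include lower SDs, so this range is not that of the whole list.

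Genes that differed between the arrays did so in groups, and the array that stood out was not the same for each group. Of the 8557 genes with a mean signal of at least 200, 878 (10.3%) spanned at least 1 log2 unit. Of these, 417 were highest on Igλ+ replicate 1, 174 on Igκ+ replicate 1, 112 on Igκ+ replicate 2 and 175 on Igλ+ replicate 2. Leaving out immunoglobulin genes, the most variable 25 had SDs of 2.52 to 3.83. Igλ+ replicate 1 was the highest array for 22 of them and Igλ+ replicate 2 the lowest for 19. The bound on the mean fixes part of this, since genes such as Fcnb, with signals of 57.8, 2.42, 1176 and 9.45, and Ppbp, with 19.9, 24.8, 1374 and 2.41, reach a mean of 200 only through Igλ+ replicate 1. Lcn2 was the last inside (SD 2.52) and Nkg7 the first outside (2.41).

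Granulocyte genes made up 11 of the 25. They were 5 of the 25 when every gene above the control level on all 4 arrays was ranked with no bound on its mean, and 3 without Igλ+ replicate 1. Mpo, the myeloperoxidase of neutrophil granules, had signals of 1702, 63.8, 7357 and 55.0. S100a8, a calcium-binding protein abundant in neutrophils, had 1189, 65.9, 8309 and 56.8, and its partner S100a9 had 1546, 117, 10779 and 96.5. Igλ+ replicate 1 was far the highest and Igκ+ replicate 1 next, and the other arrays were lower for each. The serine proteases Elane (273, 20.9, 2559.8 and 16.1), Prtn3 (168, 15.8, 2108 and 5.17) and Ctsg (348, 29.1, 3286 and 11.6) were likewise highest on Igλ+ replicate 1 and next on Igκ+ replicate 1. All 16 measured granulocyte markers were highest on Igλ+ replicate 1. The median deviation of the list was 0.35, -2.09, 3.90 and -2.03, and its summed signal ran from 403 to 47060. The list's median SD was 2.95 over the 4 arrays and 1.50 without Igλ+ replicate 1.

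Markers of other marrow lineages were also highest on that array for the most part. Igλ+ replicate 1 was highest for 16 of 17 monocyte markers, 11 of 12 markers of mast cells, basophils and eosinophils, 10 of 10 of megakaryocytes, 10 of 14 of red cell precursors and 10 of 12 of stem and progenitor cells. Mcpt8, a protease of basophils, had signals of 897, 67.3, 4054 and 18.4. Prg2, the major basic protein of eosinophil granules, had 662, 72.4, 2389 and 2.67. Pf4, platelet factor 4, had 207, 33.6, 2977 and 10.4, and Csf1r, the receptor of monocyte growth factor, had 93.7, 2.32, 1023 and 9.31. Pf4 and Csf1r were below the control level on Igλ+ replicate 2, and Csf1r also on Igκ+ replicate 2. Klf1, a red cell transcription factor, had 40.8, 19.6, 227 and 2.98, and Cd34, of stem and progenitor cells, had 31.3, 11.9, 346 and 15.1. The summed signal of the lists ran from 957 to 20161 for monocytes, 1211 to 12672 for mast cells, basophils and eosinophils, and 1125 to 6975 for megakaryocytes. It ran from 11325 to 12425 for red cell precursors, where the bright Hba-a2 was lowest on Igλ+ replicate 1, and from 6320.3 to 9718 for stem and progenitor cells. Without Igλ+ replicate 1 the median SD fell from 1.16 to 0.40 for monocyte markers, from 2.11 to 0.96 for mast cells, basophils and eosinophils, and from 1.25 to 0.39 for megakaryocytes. For red cell precursors it fell from 0.99 to 0.34 and for stem and progenitor cells from 0.57 to 0.28. Igλ+ replicate 1 remained the top array of all these marrow lists under each of the 4 scalings. B lineage transcription factors were lowest on the same array. How much of its other differences goes with these markers was not tested.

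Without Igλ+ replicate 1 the picture changed: 8 of the 25 most variable genes were shared, Mpo, Prg2, Mcpt8, S100a8, S100a9, Xist, Gzma and Jchain. Another 6 of the 25 were then on the cell cycle list, among them Mki67, Hmmr and Birc5.

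NK cell genes followed another array. Gzma, granzyme A of cytotoxic cells, had signals of 22.6, 1457, 387 and 4.12, and Ccl5, a chemokine of the same cells, had 8.39, 393, 134 and 1.82. Klra8, an NK receptor, had 6.67, 432, 102 and 0.454, and Ncr1, which defines NK cells, had 4.38, 123, 21.3 and 0.874. All 4 were highest on Igκ+ replicate 2, next on Igλ+ replicate 1 and below the control level on Igλ+ replicate 2. Of 15 NK markers, 11 were highest on Igκ+ replicate 2 and 10 lowest on Igλ+ replicate 2, and the median deviation was -0.84, 1.73, 0.48 and -1.11. Prf1 (perforin) did not follow, at 783, 866, 636 and 896. The summed signal of the list ran from 1089.8 to 5033, and 3 of the 15 were above the control level on every array.

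Cell division genes gave a different order again. Mki67, the proliferation marker Ki-67, had signals of 2457, 763, 1379 and 203. Top2a, the topoisomerase that untangles mitotic chromosomes, had 2459.6, 757, 1137 and 252, and Birc5 (survivin) had 2677, 748, 1722 and 143. Hmmr, a spindle protein, had 702, 64.4, 471 and 23.7 and the largest SD of the list, 2.01. In each, Igκ+ replicate 1 was highest, Igλ+ replicate 1 next and Igλ+ replicate 2 lowest. Of 29 measured genes 20 were highest on Igκ+ replicate 1 and 23 lowest on Igλ+ replicate 2, 20 spanned at least 1 log2 unit, and the median deviation was 0.83, -0.29, 0.47 and -0.70. The order of the arrays was the same with quantile normalization, median centring and scaling on the spiked controls. Among replication genes, Mcm4, a subunit of the replicative helicase, had 4700.2, 3114, 3918 and 3398 (SD 0.26), and Pcna, the sliding clamp, had 4862, 5555, 5030.2 and 3803 (SD 0.23). Granulocyte markers also had their higher medians on Igκ+ replicate 1 and Igλ+ replicate 1, and their part in this result was not tested. Without Igλ+ replicate 1 the list's median SD was 0.79, against 0.78 with it.

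The promoters of the cell cycle genes are shown because these genes moved together. Of 25 RefSeq windows of 24 of them, from 250 bases before to 50 after the start, 20 (80%) held CCAAT on either strand, the letters known to be bound by NF-Y, against 37.4% of all 32851 windows. TTTGAA, the core of the cell cycle homology element through which such genes are repressed in resting cells, was in 10 (40%) against 17.9%, and both were in 10 against 6.95%. TATAAA was in 0 of the 25, against 13.6%. These motifs were chosen with the values known, and a match is a description only. The windows of the 3 genes with the largest SD among those with both motifs follow, from 250 bases before to 20 after the start (RefSeq, GRCm38.p6, 5′ to 3′ on the gene's strand, capitals for CCAAT or its complement ATTGG and for TTTGAA or its complement TTCAAA). Hmmr, with 5 CCAAT and 1 TTTGAA, is at chr11:40733418-40733687 on the minus strand, Mki67, with 3 and 2, at chr7:135716360-135716629 on the minus strand, and Cdk1, with 3 and 2, at chr10:69352893-69353162 on the minus strand.
Hmmr: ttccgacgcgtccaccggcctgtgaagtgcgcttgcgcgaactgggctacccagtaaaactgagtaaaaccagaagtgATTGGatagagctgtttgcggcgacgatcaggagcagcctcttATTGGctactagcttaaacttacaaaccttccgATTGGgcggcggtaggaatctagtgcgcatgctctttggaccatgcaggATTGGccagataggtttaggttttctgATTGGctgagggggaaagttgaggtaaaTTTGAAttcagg
Mki67: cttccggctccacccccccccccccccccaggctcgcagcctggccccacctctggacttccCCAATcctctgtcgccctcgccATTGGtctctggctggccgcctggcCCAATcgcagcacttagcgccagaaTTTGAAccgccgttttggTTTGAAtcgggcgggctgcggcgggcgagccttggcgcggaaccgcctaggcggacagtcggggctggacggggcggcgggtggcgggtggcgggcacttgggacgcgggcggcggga
Cdk1: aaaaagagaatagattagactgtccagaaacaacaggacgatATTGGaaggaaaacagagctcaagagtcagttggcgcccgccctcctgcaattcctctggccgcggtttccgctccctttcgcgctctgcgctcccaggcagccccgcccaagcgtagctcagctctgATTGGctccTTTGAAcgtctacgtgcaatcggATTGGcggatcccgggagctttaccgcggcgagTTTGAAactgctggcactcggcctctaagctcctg

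The granulocyte promoters held CCAAT in 7 of 15 windows (46.7%) and TTTGAA in 4 (26.7%), against 37.4% and 17.9% of all windows. TTTGAA was also in 5 of 17 windows (29.4%) of the B cell receptor genes. GAGGAAGT, an ETS-type site of the kind bound by PU.1 (Spi1, also on the list of B lineage factors), was in 5 of 15 windows (33.3%) on either strand. These were the windows of S100a8, Mmp8, Prtn3, Elane and Mpo. It was in 3.20% of all windows and in 0 of the 25 of the cell cycle genes. This motif too was chosen with the values known. It was also in 3 of 17 windows (17.6%) of the B cell receptor genes, including that of Cd37. TATAAA was in 5 of 15, against 13.6% of all. The windows of Mpo (chr11:87793534-87793803, plus strand), S100a8 (chr3:90668821-90669090, plus strand) and Prtn3 (chr10:79879417-79879686, plus strand) follow in the same form, with capitals for GAGGAAGT or its complement ACTTCCTC and for TATAAA.
Mpo: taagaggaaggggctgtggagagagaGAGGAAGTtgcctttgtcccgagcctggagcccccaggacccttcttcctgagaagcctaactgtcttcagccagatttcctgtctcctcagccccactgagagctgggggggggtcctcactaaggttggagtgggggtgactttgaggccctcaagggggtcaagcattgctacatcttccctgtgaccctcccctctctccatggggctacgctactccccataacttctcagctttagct
S100a8: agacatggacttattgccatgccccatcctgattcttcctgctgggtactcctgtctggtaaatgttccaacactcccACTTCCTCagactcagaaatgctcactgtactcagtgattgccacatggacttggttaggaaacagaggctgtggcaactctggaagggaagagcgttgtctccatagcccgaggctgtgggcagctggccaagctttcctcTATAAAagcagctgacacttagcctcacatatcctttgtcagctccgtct
Prtn3: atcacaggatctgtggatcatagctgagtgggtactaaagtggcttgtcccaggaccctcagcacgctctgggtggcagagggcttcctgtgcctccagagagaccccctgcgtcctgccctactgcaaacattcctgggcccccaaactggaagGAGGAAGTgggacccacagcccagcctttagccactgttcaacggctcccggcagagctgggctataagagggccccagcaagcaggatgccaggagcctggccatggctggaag

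**Figure D4:**
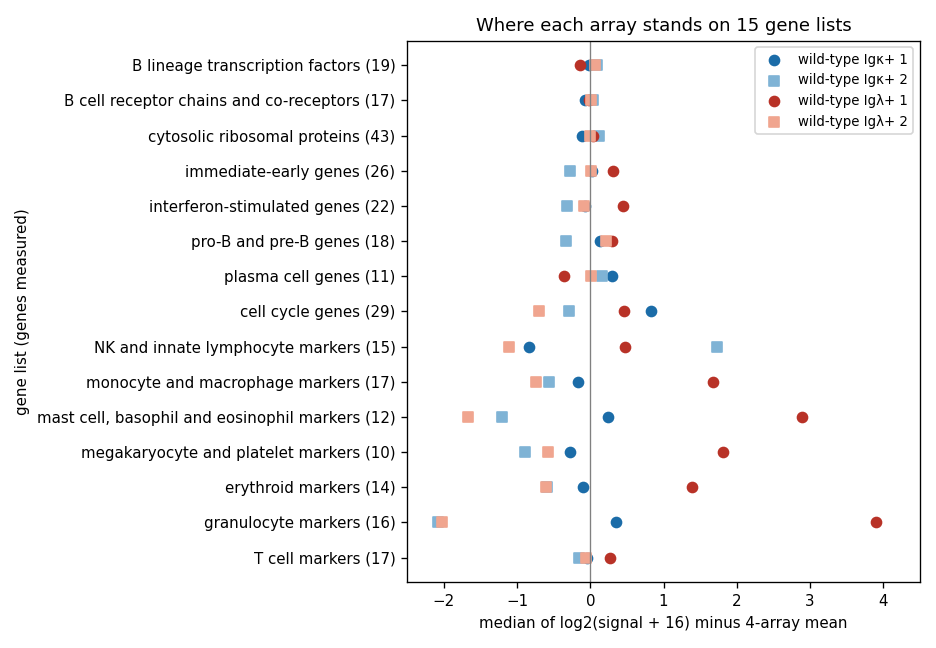
For 15 gene lists (number measured in brackets), the median over the list of each gene's log2(signal + 16) minus its mean over the 4 wild-type arrays. The lists of B lineage transcription factors, B cell receptor chains and ribosomal proteins lie within -0.15 and 0.12 on every array, while granulocyte markers reach 3.90 on Igλ+ replicate 1, NK markers 1.73 on Igκ+ replicate 2 and cell cycle genes 0.83 on Igκ+ replicate 1.

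Genes of antibody secretion varied by array. Jchain, which joins IgA and IgM into polymers, had signals of 9837, 4130.3, 4147 and 117, and Igha, the IgA heavy chain constant region, had 10263, 7531, 8055 and 348. Both were highest on Igκ+ replicate 1 and lowest on Igλ+ replicate 2. Tnfrsf17 (BCMA, a survival receptor of plasma cells) had 227, 35.2, 35.2 and 12.9, high on Igκ+ replicate 1 only, and Prdm1 (Blimp-1) had 219, 107, 71.7 and 90.5. Mzb1, an endoplasmic reticulum protein of B and plasma cells, had 4288, 5127, 4296 and 4776, and Xbp1 had 2175, 1469, 2376 and 1886, with no such order. Of the 11 genes 6 were highest on Igκ+ replicate 1 as deposited and 4 with median centring.

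Immunoglobulin genes, left out of the most variable 25, had large SDs too. Of 20 with a symbol of their own, 14 had an SD of at least 1. Igkv6-15, a κ variable segment, had signals of 6065, 6489, 4.61 and 2879.6 (SD 3.98), and Igk, the κ locus, had 11754, 12400.3, 503 and 10128. All 12 κ genes with a mean of at least 200 were lowest on Igλ+ replicate 1. Igλ+ replicate 2 lay between that array and the Igκ+ arrays for each of these 2. Heavy chain genes did not share this: Ighv14-2, a heavy chain variable segment, had 9409, 9891, 9899 and 9486 (SD 0.04). Ighg3, of IgG3, had 865, 205, 979 and 236, higher on Igκ+ replicate 1 and Igλ+ replicate 1. Many κ segments are near-identical, so a probe set can read several of them.

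Xist, the RNA that coats the inactive X chromosome, was the most variable gene of the set. Its signals were 4290.4, 1.97, 1741 and 4977, below the control level on Igκ+ replicate 2, and its other probe sets gave 1138, 5.06, 532 and 1763, and 514, 7.96, 183 and 1171. The Y-linked genes were present on every array. Eif2s3y had 3634, 5248, 4499.7 and 3952, Kdm5d 818, 947, 731 and 746 and Uty 162, 150.3, 171 and 139, with SDs of 0.12 to 0.23. Xist is transcribed in female cells and the Y-linked genes in male cells, and the labels give the sex of every sample as a mix. On Igκ+ replicate 2 all the Xist probe sets were below the control level while the Y-linked genes were read. Which sexes gave RNA to that array was not tested.

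**Figure D5:**
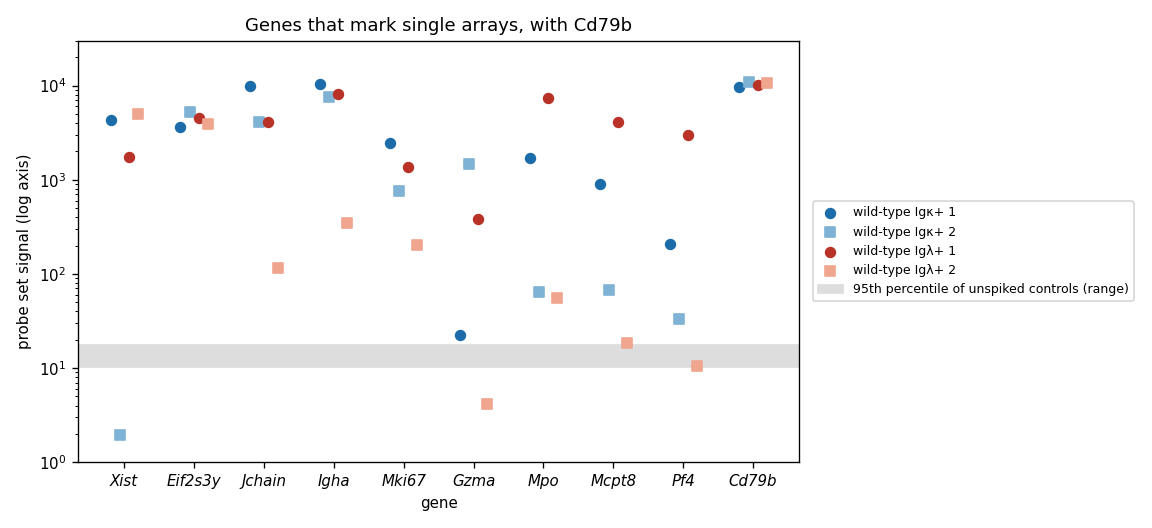
Signals (log axis) of 10 genes on the 4 wild-type arrays, with the range of the control level in grey. Xist is under 2 on Igκ+ replicate 2, Gzma is highest there, Jchain and Igha drop on Igλ+ replicate 2, Mpo, Mcpt8 and Pf4 peak on Igλ+ replicate 1, and Cd79b, a B cell receptor chain, lies at 9747 to 10878.

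Genes of the early B cell stages were read at uneven levels. The list's median SD was 0.65, with 0.37 when Igλ+ replicate 1 was left out and 0.43 when Igκ+ replicate 2 was. Of 18 measured, 13 were above the control level on every array, and Mme (CD10) was at it. Igll1, the λ5 chain of the surrogate light chain, had signals of 2883, 1231, 3386 and 3185, and Vpreb3 had 2927, 3741, 2778 and 4478. Dntt, the terminal transferase of heavy chain rearrangement, had 353, 111, 1287 and 43.3, and Il7r, the interleukin 7 receptor of progenitors, had 551, 139, 780.1 and 613. Igκ+ replicate 2 was lowest for Igll1 and Il7r and for 8 of the 18 (6 with median centring, where 7 were lowest on Igλ+ replicate 1), while Dntt was highest on Igλ+ replicate 1 and lowest on Igλ+ replicate 2. Sox4 (1497, 1733, 559.7 and 2419) and Bst1 (356, 273, 86.8 and 773) were instead lowest on Igλ+ replicate 1. Myb varied less than these 2, at 6393, 5052, 5706 and 6458.

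Immediate-early and interferon-stimulated genes were both above the control level in full, 26 of 26 and 22 of 22. Of the first, which respond within minutes to stimulation or handling, 19 were highest on Igλ+ replicate 1 and 16 lowest on Igκ+ replicate 2. With median centring 9 were lowest on Igκ+ replicate 2 and 12 on Igλ+ replicate 2, so the lowest array depends on the scaling. Jun had signals of 3098, 1065, 4470.1 and 3245, Fosb 263, 28.5, 424 and 126 and Nr4a1 413, 194, 769.7 and 272, while Klf6 had 5149, 5246, 5526 and 5302. Of the interferon genes 18 were highest on Igλ+ replicate 1, among them Oas1a (459, 392, 1138 and 541), an antiviral enzyme, and Irf7 (503, 424, 1001 and 372). With the 3 other scalings, 13 to 17 and 15 to 18 were highest there. The median SD fell from 0.40 to 0.28 and from 0.43 to 0.19 without that array. Myeloid markers were high on it too, and their part was not tested. Hspa1a, a heat shock protein, had 115, 82.9, 1176 and 74.6 and was highest there as well.

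Markers of cells outside the marrow were mostly dim. Of 14 liver genes 4 were at the control level on every array and 1, Apoa2, was above it. Of 15 genes on the neuron list, which also holds the glial genes Gfap and Mbp, 4 were at it and 6 above it. Of 15 muscle genes the counts were 4 and 5, and of 12 germline genes 3 and 3. Over all genes, 15.1% were at it and 64% above it. Mean signals of at least 200 were reached by 0 genes of the liver list, 2 of the neuron list, 1 of the muscle list and 0 of the germline list. Alb, albumin, had signals of 11.1, 7.95, 3.30 and 18.0, Snap25, of synapses, 2.73, 4.42, 10.3 and 6.96, and Myog, of muscle, 11.2, 5.48, 10.1 and 11.0. A few were bright: Mbp had 1568, 2084, 2205 and 1338, Gad1 664, 313, 251 and 452 and Tnni2 299, 405, 307 and 407. What other transcripts their probe sets may read was not tested.

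The depletion could be read on 5 of its 9 listed antigens. Cd3d had signals of 22.1, 47.2, 37.5 and 11.6, Cd3e 2.15, 27.5, 40.2 and 7.86 and Cd3g 28.7, 35.6, 24.8 and 26.8, Itgam (CD11b) 18.9, 5.85, 26.6 and 12.9 and Itga2 (DX5) 1.60, 3.14, 17.6 and 8.68. Only Cd3g exceeded the control level on all 4. Of 17 T cell markers, Cd6 and Gata3 were at the control level on every array, and Cd4 had 5.09, 1.67, 81.9 and 3.70, above it on Igλ+ replicate 1 only. Cd2 was bright at 4514, 6270.0, 5258 and 5273, a gene that mouse B cells also express. Hba-a2, an α-globin, was bright at 6157, 7122, 4773 and 6747, lowest on Igλ+ replicate 1 (SD 0.26, against a median of 0.11 for genes above 5000), whereas Hba-a1, a near-identical copy, was at the control level with 0.640, 1.16, 1.34 and 3.36. A probe set can read both copies.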

How the data were processed

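Affymetrix arrays of 45101 probe sets had measured RNA of 6 samples, and the 4 wild-type arrays are described. The deposited values are probe set intensities on a linear scale, made by the authors with MAS5 per the submitters' processing notes, whose version is not given in the sources used here. Each array has a mean of 500 once 2% of probe sets at each end are left out, so one factor scales it and its distribution was not matched to the others. The platform annotation gave 34945 probe sets 1 symbol, 932 several and 9160 no listed gene, and 64 were controls. Of the single-symbol probe sets, 34741 were matched by Entrez identifier to RefSeq (GRCm38.p6) and 0 symbols changed. The intensities were converted to log2(signal + 16). The named genes are the brightest, steadiest (mean 500 to 5000) and most variable (mean at least 200) 25, the members of 34 gene lists, and the immunoglobulin genes. The arrays, members and lists were chosen with earlier results of these data known, and no contrast was tested. An outlier rule served only to flag items for a closer look. Promoter windows were searched on both strands, also for motifs not described (among them an octamer and a CRE site). The alternatives were 3 other scalings, pseudocounts of 1 and 64, other control levels and probe set rules, no signal window, and leaving out each array. Precision is limited by how few arrays there are. On simulated data, the code that ranks variable genes recovered nearly all planted genes. The planted shifts were large and in bright probe sets, and recovery was counted in a longer list than 25. Smaller spreads, dimmer genes and the choice of the steadiest set were not tested in this way. Python 3.11.15, pandas 2.3.3, numpy 2.4.6 and matplotlib 3.10.9 were used.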

Additional observations from a re-analysis of the deposited data

Results flagged for a closer look

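Among 121 named genes and list medians, 8 had 1 array farther from the others than chance places about 1 in 20 groups of 4. That share is near what chance alone gives, and many of the items were picked by their values on these same arrays. The flags are therefore a description only. Rps20 was lowest on Igκ+ replicate 1 (12103) and Sgpp1, one of the steadiest genes, on Igκ+ replicate 2 (2243). Of the immunoglobulin genes, Igkv6-15 (4.61), Igk (503) and Igkv8-30 (188) were lowest on Igλ+ replicate 1, and Igha on Igλ+ replicate 2 (348). The median deviation of the dendritic and plasmacytoid cell markers (0.70) and of the stem and progenitor cell markers (0.79) was highest on Igλ+ replicate 1. Without that array the median SD of these lists was 0.15 in place of 0.49 and 0.28 in place of 0.57. Siglech, of plasmacytoid dendritic cells, had signals of 14.6, 37.3, 238 and 30.1, in the array order used above.

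Probe sets outside the single-symbol genes also carried signal. Of 932 with several symbols, 648 were above the control level on all 4 wild-type arrays, and of 9160 with no listed gene, 4072 were. They hold 8 and 1 of the brightest 25 probe sets.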

How the results depend on the processing

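Of 68 recomputed counts, 52 stayed near their value and 16 moved. The brightest 25 kept 22 to 25 members under every alternative except the mean of all probe sets of a gene, where 12 were shared. The steadiest 25 shared 10 genes after quantile normalization, 0 with median centring, 0 with scaling on the spiked controls, 16 with no signal window, 10 with the mean of all probe sets, and 4 to 7 without 1 array. The most variable 25 shared 11 with no window and 8 to 24 without 1 array (8 without Igλ+ replicate 1, 21 to 24 otherwise). Genes at the control level on all arrays numbered 1583 at the 75th percentile of the controls. Lineage markers at it numbered 13 at that percentile, 36 with the mean of all probe sets, and 24 to 38 without 1 array (38 without Igλ+ replicate 1). Of the values of single genes, 991 moved by less than the spread between arrays and 59, of 41 genes, by more. In 102 comparisons of list medians under other scalings, added after the data were seen, 72 spans moved by less than that spread, and 17 of 34 lists changed their top array in at least 1 scaling. Signals near the controls and brightest signals limit what the arrays resolve.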

Other observations

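Genes of stromal and vascular cells were mostly dim. Of 17 measured, 1 had a mean signal of at least 200. On every array 5 were above the control level, and Pdgfra and Emcn were at it. Over all genes, 64% were above it and 15.1% at it. Col1a1, of collagen I, had signals of 155, 9.43, 179 and 19.5, higher on Igκ+ replicate 1 and Igλ+ replicate 1. Pecam1, which B cells also express, had 982, 1060.0, 685 and 882. Of the receptors for survival and helper signals, Tnfrsf13c, the BAFF receptor, had 7139, 7805, 6899.6 and 7342, and Cd40 had 6046, 5344, 5992 and 5629, with no array apart. Itgb7, a homing integrin of the gut, had 3181, 3313, 5077 and 2152 and was highest on Igλ+ replicate 1.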
